A study of Homo sapiens with 8 samples.

Results

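Peaks of the tumour suppressor p53 were examined at 6 genes of the DNA damage response that p53 is known to activate: XPC, DDB2, RRM2B, POLH, PCNA and RPS27L. The peaks were those of 4 deposited lists that overlapped a window reaching about 10 kb beyond each gene, and they numbered 40 of 24535 peaks in all. The members were 6 peaks from doxorubicin-treated cells, 0 from untreated cells, 24 from Nutlin-3-treated cells and 10 from DMSO-treated cells. All cells were U2OS, a human osteosarcoma line that carries wild-type p53 per the labels' protocols. They received 0.6 µg/ml doxorubicin, no treatment, 10 µM Nutlin-3 or 0.1% DMSO, with a time of 24 h given for each. Doxorubicin poisons topoisomerase II and breaks DNA, and no treatment is named as its control. Nutlin-3 blocks the binding of the ubiquitin ligase MDM2 to p53, and the solvent DMSO is named as its control. The antibody DO-1 was used to pull down p53 with its chromatin for sequencing (ChIP-seq), with 1 ChIP library and 1 input library for each condition. With 1 library each and no replicate, conditions could not be compared by a test, and all comparisons describe these libraries.

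p53 is a transcription factor that binds DNA as a tetramer at a pair of decamers, and it switches on genes that stop the cell cycle, kill damaged cells or repair their DNA. In the repair branch, XPC and DDB2 recognise bulky lesions such as those left by ultraviolet light and start nucleotide excision repair. POLH encodes polymerase eta, which copies past such lesions, and PCNA encodes the sliding clamp that holds polymerases on DNA and recruits polymerase eta. RRM2B encodes the p53-inducible small subunit of ribonucleotide reductase, which supplies deoxynucleotides for repair. RPS27L encodes a protein closely related to ribosomal protein S27.

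Sequence around a start site in RefSeq (GRCh38.p14) was found for 5 of the 6 genes, and it is shown for the windows of DDB2 and PCNA, whose stretch holds a match to the p53 consensus with at most 2 mismatches. Each stretch runs from 250 bases before a start site to 50 bases after it. DDB2 and PCNA each have 2 start sites in the table, and in both genes the second one holds the match. Capitals mark the decamers of that match, written 5′ to 3′ on the gene's strand.
DDB2, second start, chr11:47214724-47215023, plus strand: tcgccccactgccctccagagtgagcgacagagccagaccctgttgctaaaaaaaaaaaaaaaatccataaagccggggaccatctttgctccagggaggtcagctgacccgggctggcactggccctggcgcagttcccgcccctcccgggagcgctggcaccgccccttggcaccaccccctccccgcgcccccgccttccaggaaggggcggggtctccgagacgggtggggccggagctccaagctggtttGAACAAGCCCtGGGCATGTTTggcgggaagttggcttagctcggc
PCNA, second start, chr20:5119909-5120208, minus strand: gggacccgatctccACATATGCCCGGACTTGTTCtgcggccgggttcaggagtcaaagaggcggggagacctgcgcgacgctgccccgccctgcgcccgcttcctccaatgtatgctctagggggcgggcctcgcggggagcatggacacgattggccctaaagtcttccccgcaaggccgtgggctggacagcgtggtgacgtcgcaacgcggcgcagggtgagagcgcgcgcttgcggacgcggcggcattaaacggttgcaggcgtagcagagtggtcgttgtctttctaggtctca
The DDB2 site alone, with a spacer of 1 base between the decamers, and the PCNA site alone, with no spacer, read as follows.
DDB2 site: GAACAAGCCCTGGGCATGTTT
PCNA site: ACATATGCCCGGACTTGTTC

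The DDB2 site matched the p53 consensus at all 20 positions, which 0.0199% of 35116 such RefSeq stretches did with a spacer of 0 or 1. It began at base 6 of the transcript from the second start, which lies 520 bases downstream of the first DDB2 start. The PCNA site had 2 mismatches, both in its first decamer, a level that 1.34% of the stretches reached. It began at position -236 relative to the second PCNA start, which lies 6.66 kb downstream of the first. The consensus reads the same on both strands, so a search of 1 strand covered both. In RPS27L 1 exact decamer was found, AGACAAGCCC, as 6.63% of the stretches held at least 1. The best sites of XPC and RPS27L each had 3 mismatches (9.75% of stretches had 3 or fewer), and that of POLH had 6. Positions were not converted between builds, so these sequences are not placed on the peaks, which the lists give in hg18. A match describes letters and not binding.

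The windows lay in hg18 on chromosome 3 from 14151000 to 14206000 (XPC), chromosome 11 from 47183000 to 47228000 (DDB2), chromosome 8 from 103275000 to 103331000 (RRM2B), chromosome 6 from 43641000 to 43707000 (POLH), chromosome 20 from 5033000 to 5066000 (PCNA) and chromosome 15 from 61222000 to 61247000 (RPS27L). No hg18 annotation was used here, so exons, introns and untranslated regions are not given. The 5′ end of a gene was taken to lie 10 kb inside its window, on the side that its strand gives, and such distances are good to about 1 kb at best. For RPS27L they are less certain, because its window leaves 5 kb for the gene, against a RefSeq gene length of 9.23 kb. Other protein-coding genes that RefSeq places within 10 kb of a member are TMEM43 and LSM3 (XPC), ACP2 and NR1H3 (DDB2), XPO5, GTPBP2 and MAD2L1BP (POLH), TMEM230 and CDS2 (PCNA) and LACTB (RPS27L), so a peak in a window need not belong to the member alone.

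Each list holds a chromosome, a start and an end for a peak and no score, height or read count, so width is the only size given. Depth is unknown, and a longer list can come from more reads or a looser threshold as well as from more binding. The lists held 3087 (doxorubicin), 496 (no treatment), 18159 (Nutlin-3) and 2793 (DMSO) peaks. Widths were multiples of 20 bp throughout, and the smallest was 40 bp. The untreated list stood apart from the Nutlin-3 and DMSO lists. Of its 496 peaks, 33.5% were overlapped by a doxorubicin peak, 6.45% by a Nutlin-3 peak and 1.21% by a DMSO peak, and from the other side 0.215% of DMSO peaks overlapped an untreated peak. Because it holds 0 peaks in these windows, the values of the other lists here are the same with and without it.

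p53 peaks were listed in all 6 windows with Nutlin-3 and with DMSO, in 5 of 6 with doxorubicin and in 0 of 6 without treatment. XPC was the window with no doxorubicin peak. Without peaks of 40 bp, 2 windows held a doxorubicin peak, 6 a Nutlin-3 peak and 4 a DMSO peak. Among the 496 widest peaks of each list, the numbers of windows were 0, 0 and 2. The last number depends on the order given to peaks of equal width at the cut. At the doxorubicin share of 0.194%, 496 peaks would hold 0.964 in the windows on average, so a count of 0 says little. No share of bins was computed after either cut. To read the counts of the whole lists, each chromosome, from its first peak to its last, was divided into 59582 bins of 50 kb, close to the window widths of 25 to 66 kb. A peak was held by 4.16% of bins for doxorubicin, 0.559% for no treatment, 20.0% for Nutlin-3 and 4.04% for DMSO. The whole lists of treated or solvent-treated cells thus held a peak at these genes more often than in bins at large, and for no treatment a count of 0 of 6 is near its background. Doxorubicin, Nutlin-3 and DMSO together had a peak in 5 of the 6 windows, against 2.41% of bins. These genes are long-known p53 targets and were chosen with results of these data known, so the contrast with the bins is a description.

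**Figure D1:**
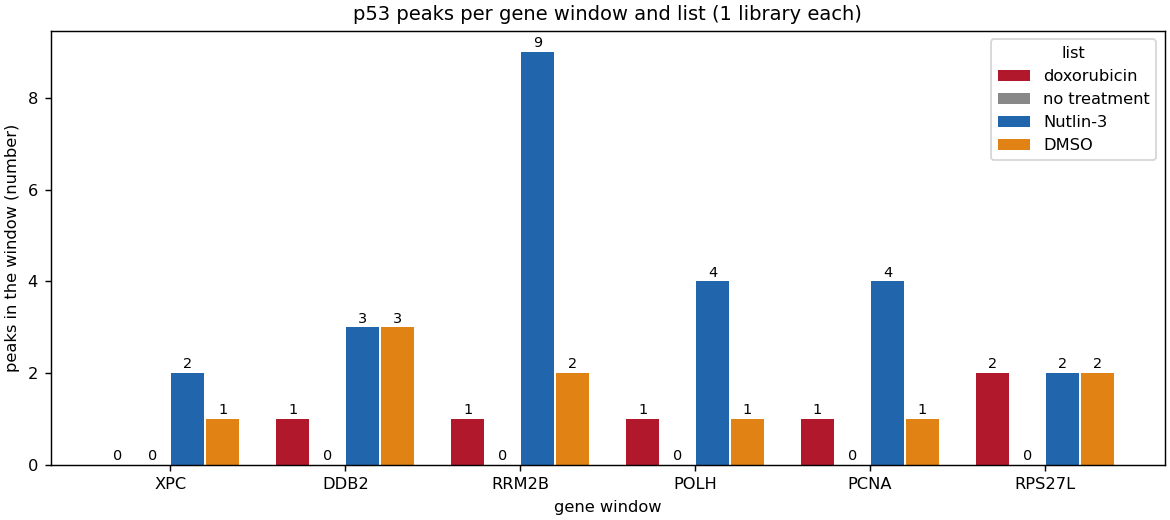
Number of p53 peaks (y axis) in each gene window (x axis) for the doxorubicin, no treatment, Nutlin-3 and DMSO lists, 1 library each. Nutlin-3 has 9 peaks at RRM2B, against 2 with DMSO, no untreated bar rises above 0, and XPC lacks a doxorubicin peak.

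The peaks were packed into short stretches of the windows. Setting apart any peak over 5 kb from the next, 39 of 40 lay in 1 group per gene, and the groups spanned 9.96 kb in all, or 3.56% of the 280 kb of windows. The span was 0.420 kb at XPC, 0.880 kb at DDB2, 5.32 kb at RRM2B, 0.580 kb at POLH, 1.24 kb at PCNA and 1.52 kb at RPS27L. Peak centres lay within 1.51 kb of the implied 5′ end at XPC, DDB2, POLH and RPS27L. At RRM2B peak centres ran from -1.73 kb (upstream) to 3.54 kb relative to that end. At PCNA the group lay inside the gene, 6.86 to 8.04 kb downstream of the implied 5′ end. The remaining peak was a Nutlin-3 peak of 80 bp on chromosome 6 from 43705051 to 43705131, which is 54.1 kb from the implied 5′ end of POLH and beyond its 3′ end.

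**Figure D2:**
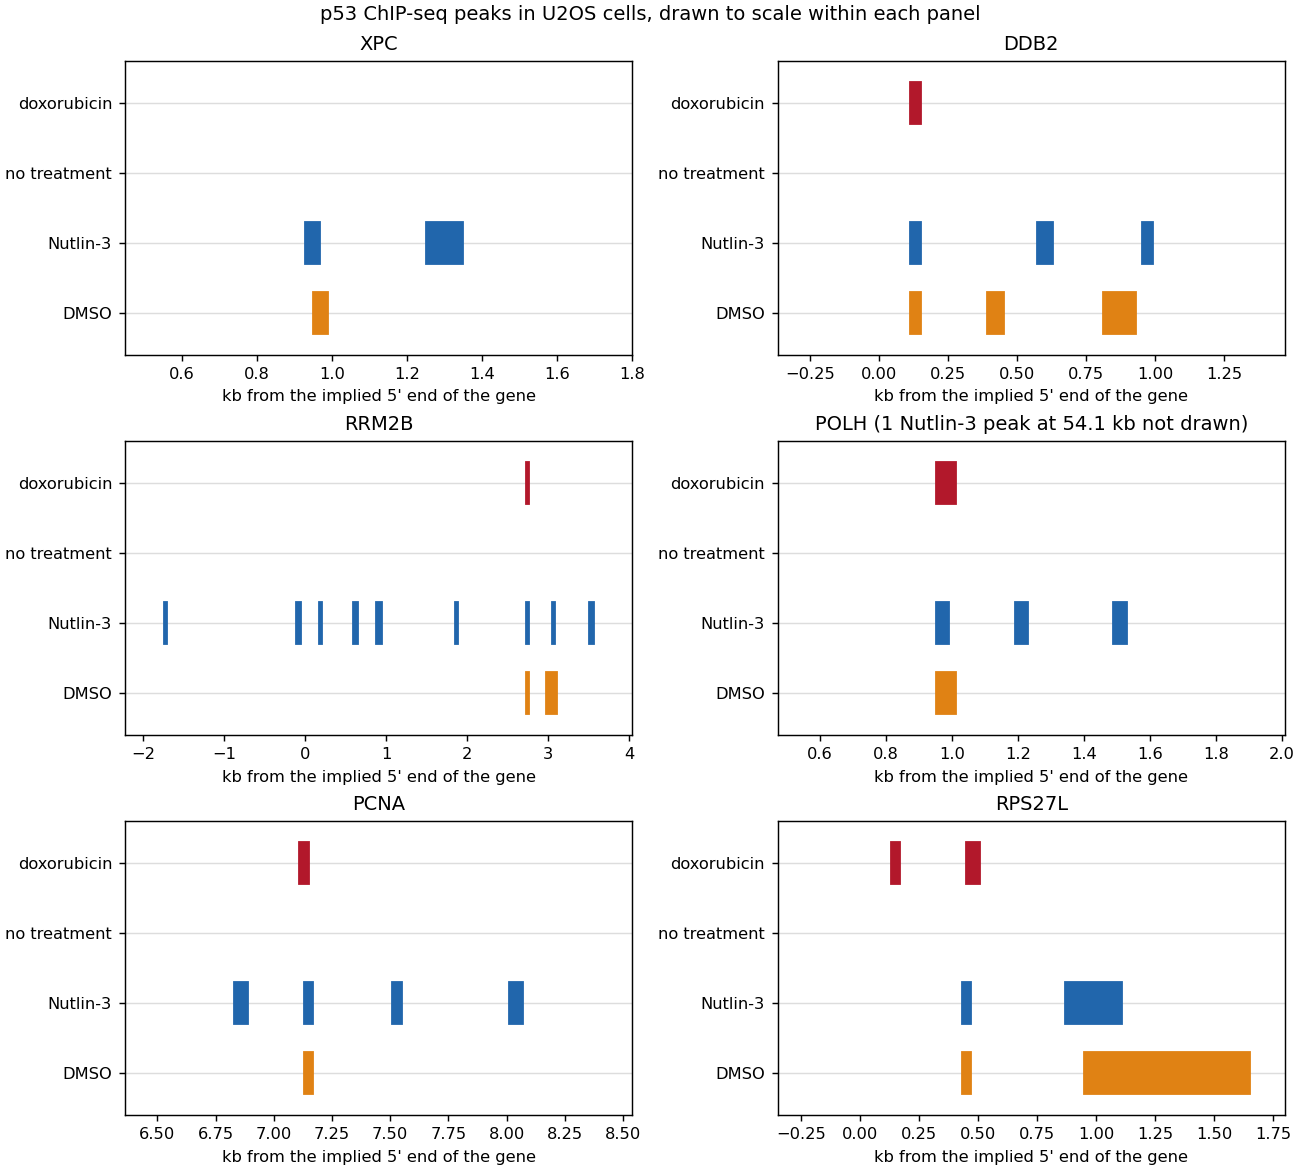
Position of each p53 peak, drawn to scale, in kb from the implied 5′ end of the gene in the direction of transcription (x axis, a different range in each panel), with the doxorubicin, no treatment, Nutlin-3 and DMSO lists from top to bottom. In every panel except XPC the doxorubicin, Nutlin-3 and DMSO lists have a peak at the same place, and the no treatment row is empty.

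Doxorubicin was set against no treatment, to ask which sites p53 occupies after DNA damage. The doxorubicin list held 6 peaks in the windows, or 0.194% of its peaks (95% exact binomial interval 0.0714 to 0.423). The untreated list held 0 of 496, which allows a share of up to 0.605%, a limit above the share of doxorubicin. At that share, a list of 496 would hold 0.964 peaks in the windows on average, so a list of this length could hardly show a difference. DDB2, RRM2B, POLH and PCNA had 1 doxorubicin peak each, RPS27L had 2 and XPC had 0. Of all bins, 3.98% held a doxorubicin peak and no untreated peak, as 5 of the 6 windows did. Of the bins with a doxorubicin peak, 95.8% held no untreated peak, so the lack of untreated peaks in these 5 windows is near the background. The nearest untreated peak lay 299520 bp from the doxorubicin peak at RPS27L that was closer to it, and over 1 Mb away at the other genes.

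Nutlin-3 was set against DMSO, to ask what blocking MDM2 adds without DNA damage. The Nutlin-3 list held 24 peaks in the windows and the DMSO list 10, a ratio of 2.40, whereas the whole lists differed 6.50 times in length. As a share of the list, the windows held 0.132% of Nutlin-3 peaks (0.0847 to 0.197) and 0.358% of DMSO peaks (0.172 to 0.657). These intervals cover counting error only. The peaks lay in groups and were not independent, so the intervals are too narrow and do not compare the conditions. The difference in count varied between the windows, which was not tested. RRM2B had 9 with Nutlin-3 and 2 with DMSO, POLH and PCNA each had 4 with Nutlin-3 and 1 with DMSO, and XPC had 2 with Nutlin-3 and 1 with DMSO. DDB2 had 3 in each list and RPS27L had 2 in each. Nutlin-3 peaks outnumbered DMSO peaks in 4 of 6 windows, against 18.3% of all bins and 50.4% of the bins that held a DMSO peak, so this count is near the second background. The summed peak width in the windows was 1420 bp with Nutlin-3 and 1280 bp with DMSO, a ratio of 1.11. Without RPS27L, whose DMSO peak of 700 bp is described below, it was 1140 bp with Nutlin-3 and 540 bp with DMSO, a ratio of 2.11. Over the whole lists the summed width was 1610 kb with Nutlin-3 and 228 kb with DMSO, so both ratios lay below that of the lists.

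At XPC, the damage sensor of global nucleotide excision repair, the Nutlin-3 and DMSO lists met at a single place. The Nutlin-3 peak from 14195031 to 14195071 and the DMSO peak from 14195011 to 14195051, each 40 bp wide, had 20 bp in common. A second Nutlin-3 peak of 100 bp, from 14194651 to 14194751, lay 280 bp from the first and had no counterpart in another list. The nearest doxorubicin peak was 146120 bp away.

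DDB2, which encodes the subunit that recognises lesions in the UV-DDB complex, held a peak with the same bounds in the doxorubicin, Nutlin-3 and DMSO lists, on chromosome 11 from 47193111 to 47193151. Doxorubicin had no other peak there. Nutlin-3 had 2 further peaks, from 47193571 to 47193631 and from 47193951 to 47193991, of 60 and 40 bp. DMSO also had 2 further peaks, from 47193391 to 47193451 and from 47193811 to 47193931, of 60 and 120 bp. The further peaks of the lists alternated along the gene without overlapping. A DMSO peak ended 20 bp before a Nutlin-3 peak began, and another lay 120 bp from its nearest Nutlin-3 peak, so sites that an overlap of 1 bp counts as different lay side by side.

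RRM2B, the ribonucleotide reductase subunit, carried the most peaks. The peak on chromosome 8 from 103318231 to 103318271 had the same bounds in the doxorubicin, Nutlin-3 and DMSO lists, and it was the only doxorubicin peak. A Nutlin-3 peak of 40 bp, from 103317911 to 103317951, lay inside a DMSO peak of 140 bp, from 103317891 to 103318031. The other 7 Nutlin-3 peaks were 40 to 80 bp wide and overlapped no other list. Of these, 1 lay 400 bp from a DMSO peak on the far side of the shared sites, and the other 6 lay 840 to 4440 bp from the nearest DMSO peak, towards and past the implied 5′ end. At least 9 Nutlin-3 peaks were held by 18 of 59582 bins, or 0.0302%, though the RRM2B window of 56 kb is somewhat wider than a bin. That share is over all bins, of which 20.0% held any Nutlin-3 peak. The share among bins with a DMSO peak was not counted.

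At POLH, the gene of the translesion polymerase, the doxorubicin and DMSO peaks had the same bounds, chromosome 6 from 43651951 to 43652011, and the Nutlin-3 peak there was 20 bp shorter, ending at 43651991. Nutlin-3 had 2 more peaks of 40 bp nearby, from 43652191 to 43652231 and from 43652491 to 43652531. These lay 180 and 480 bp from the peak of the other lists. With the distant peak described above, POLH held 4 Nutlin-3 peaks, as did PCNA. At least 4 Nutlin-3 peaks were found in 0.994% of bins. The 4 POLH peaks spanned 53.2 kb in a window of 66 kb, so no bin of 50 kb could hold them all. That share can therefore be set beside PCNA and not beside POLH. It too is over all bins, and the share among bins with a DMSO peak was not counted.

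At PCNA, the sliding clamp gene, the Nutlin-3 and DMSO peaks had the same bounds, chromosome 20 from 5048831 to 5048871. The doxorubicin peak was shifted by 20 bp, from 5048851 to 5048891. All 3 peaks were 40 bp wide and had 20 bp in common. Nutlin-3 had 3 more peaks of 40 to 60 bp, which lay 240 to 840 bp from the DMSO peak on both sides of it. The PCNA peaks lay farther inside their gene than those of the other members. The second RefSeq start, whose sequence is printed above, lies 6.66 kb inside the gene in GRCh38.p14, and the hg18 peaks lie 6.86 to 8.04 kb from an end known to about 1 kb.

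RPS27L, the ribosomal protein S27 relative, held the widest peaks of the 6 windows. The DMSO peak on chromosome 15 from 61235351 to 61236051 was 700 bp wide and ranked 1 of 2793 in its list. The Nutlin-3 peak that overlapped it, from 61235891 to 61236131, was 240 bp wide and had rank 728 of 18159 by width. They had 160 bp in common, and no doxorubicin peak overlapped either. All 3 lists met again at a neighbouring site, where the doxorubicin peak ran from 61236491 to 61236551 and the Nutlin-3 and DMSO peaks both from 61236531 to 61236571. A second doxorubicin peak, from 61236831 to 61236871, was the only site of the 6 windows listed with doxorubicin alone, 260 bp from the nearest Nutlin-3 and DMSO peak.

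Peaks in the windows had a median width of 40 bp with doxorubicin, 40 bp with Nutlin-3 and 50 bp with DMSO, against 60 bp over each whole list. Peaks of the smallest width made up 4 of 6 doxorubicin peaks (66.7%), 14 of 24 Nutlin-3 peaks (58.3%) and 5 of 10 DMSO peaks (50%), against 43.5%, 34.6% and 47.5% of the same lists. Peaks over 100 bp numbered 0 with doxorubicin, 1 with Nutlin-3 (RPS27L) and 3 with DMSO (DDB2, RRM2B and RPS27L), while 24.8%, 25.6% and 22.2% of these whole lists were as wide. The mean width in the windows was 46.7 bp with doxorubicin and 59.2 bp with Nutlin-3, against 112 and 88.7 bp over these lists. With DMSO it went the other way, 128 bp against 81.7 bp, a mean that includes the RPS27L peak of 700 bp. By median and mean, peaks at these well-known target genes were thus not wide for their lists with doxorubicin and Nutlin-3. Single peaks at RPS27L were wide: the Nutlin-3 peak of 240 bp had rank 728 of 18159, and the DMSO peak was the widest of its list.

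**Figure D3:**
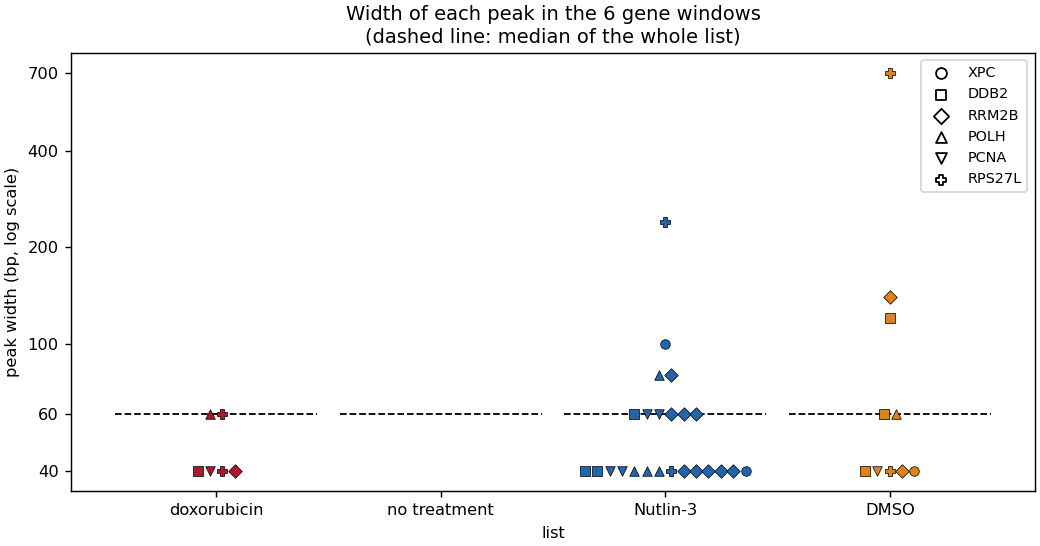
Width of each peak in the 6 gene windows in bp on a log scale (y axis) for each list (x axis), with a symbol for each gene and a dashed line at the median of 60 bp of each whole list. Most points sit at 40 or 60 bp, the DMSO peak at RPS27L reaches 700 bp, and no treatment has no point.

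Merging overlapping or adjoining peaks gave 27 regions in the windows, of which 8 (29.6%) were held by at least 2 lists, against 16.0% of the 19877 regions of the series. Doxorubicin, Nutlin-3 and DMSO together held 5 regions (18.5%, against 7.04% of all regions), 1 each at DDB2, RRM2B, POLH, PCNA and RPS27L. Nutlin-3 and DMSO shared a further 3 (11.1%, against 3.90% of all), at XPC, RRM2B and RPS27L. Nutlin-3 alone held 16 regions (59.3%, against 76.0% of all), and DMSO alone held 2, both at DDB2 (7.41%, against 2.93%). Doxorubicin alone held 1 (3.70%, against 3.52%), which is near its background. No region was held by doxorubicin and Nutlin-3 without DMSO, a class that made up 3.99% of all regions, so 0 of 27 is near that share. The bounds were identical in the 3 lists for 2 of the 5 shared regions, and for 56 of 1400 such regions in the series (4%). All 5 regions held by 3 lists rest on peaks of 40 bp, and 0 remained when such peaks were left out. The same count over the series was not made. Peaks of 40 bp made up 43.5% (doxorubicin), 34.6% (Nutlin-3) and 47.5% (DMSO) of the whole lists, so this loss is not shown to be particular to these genes.

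Overlap was also counted from the side of each list. Of the 6 doxorubicin peaks, 5 overlapped a DMSO peak (83.3%, 95% interval 35.9 to 99.6, against 40.6% of the whole list). The same 5 overlapped a Nutlin-3 peak, against 63.5% of the list, and 0 overlapped an untreated peak, against 5.54%. Of the 24 Nutlin-3 peaks, 8 overlapped a DMSO peak (33.3%, 15.6 to 55.3, against 10.9%), 0 overlapped an untreated peak (against 0.187%), and 5 overlapped a doxorubicin peak (20.8%, 7.13 to 42.2, against 10.8%). Of the 10 DMSO peaks, 8 overlapped a Nutlin-3 peak (80.0%, 44.4 to 97.5, against 70.4%), and 5 a doxorubicin peak (50%, 18.7 to 81.3, against 45.0%). Peaks at these genes lay in groups and were not independent, so these intervals are too narrow and serve as a description. The share of Nutlin-3 peaks found with DMSO was the one of these whose interval lay above the value of its list. Without peaks of 40 bp it was 1 of 10 (10.0%, 0.253 to 44.5, against 4.82% of the list), and the interval then held the list's value. Within 1000 bp, all 10 DMSO peaks had a Nutlin-3 peak, against 88.4% of the list, and 18 of 24 Nutlin-3 peaks had a DMSO peak (75.0%, against 18.9%).

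Peaks of the same list stood close together at these genes. Another peak of the same list within 1000 bp was found for 2 of 6 doxorubicin peaks (33.3%, 4.33 to 77.7, against 14.6% of the list), for 22 of 24 Nutlin-3 peaks (91.7%, 73.0 to 99.0, against 24.1%) and for 7 of 10 DMSO peaks (70.0%, 34.8 to 93.3, against 14.8%). The exceptions with Nutlin-3 were the distant peak near POLH and the outermost peak at RRM2B, 1600 bp from its neighbour. For Nutlin-3 and DMSO the interval lay above the share of the whole list. Neighbouring peaks come in groups, so they are not independent, and the intervals are too narrow for that reason.

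**Figure D4:**
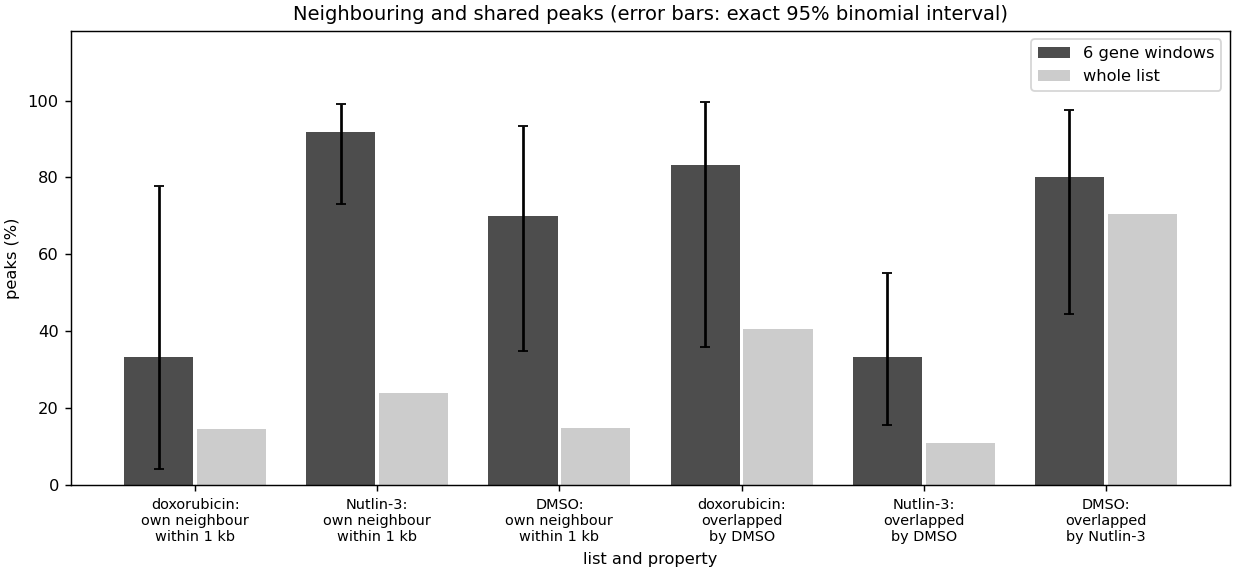
Percentage of peaks (y axis) with another peak of the same list within 1 kb, or overlapped by a peak of another list (x axis), for the 6 gene windows (dark bars, with exact 95% binomial intervals) and the whole list (light bars). The dark bar stands highest, at 91.7%, for Nutlin-3 peaks with a neighbour, against 24.1% for the whole list.

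Doxorubicin and DMSO, which the labels do not pair, are given side by side because their lists are of like length. In the windows doxorubicin had 6 peaks and DMSO had 10, a ratio of 0.600, against a ratio of 1.11 between the whole lists. Doxorubicin had fewer peaks than DMSO at XPC, DDB2 and RRM2B and the same number at POLH, PCNA and RPS27L. DMSO peaks outnumbered doxorubicin peaks in 1.96% of all bins and in 48.5% of the bins that held a DMSO peak, so 3 of 6 windows is near the second background. The summed width was 280 bp with doxorubicin and 1280 bp with DMSO, of which the RPS27L peak made up 700 bp. Over the whole lists the order was the reverse, 347 kb with doxorubicin and 228 kb with DMSO.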

How the data were processed

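Each of the 4 ChIP libraries had its own deposited list of peaks, with no pooled list, and inputs served as controls per the labels. The lists hold positions in bp (hg18) and no signal value. The submitters' processing notes name hg18, CASAVA and Bowtie 0.12.2; what each did, and how peaks were called and filtered, is not stated in those notes or the labels. Peaks that only adjoin did not count as overlapping, and whether ends belong to the peak is unknown, which leaves 1 bp open.

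Peaks with at least 1 bp in a window were members, and at least 1 bp in common made peaks shared. The members and lists were chosen with earlier results of these data known. All 6 genes are named, with every region held by at least 2 lists and the widest region of each window, and most others. No planned list of further repair genes could be used without an hg18 annotation. Analysis used Python 3.11.15, pandas 2.3.3, numpy 2.4.6 and scipy 1.17.1; intervals are exact binomial (Clopper-Pearson, 95%) and cover counting error only, as does the limit that a count of 0 allows (3 counts of the list). Strands came from RefSeq (GRCh38.p14) and, for RRM2B, from general knowledge. The overlap, merging and motif code was tested on simulated data. Alternatives covered the window, the width, merging, the overlap rule and bin size.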

Additional observations from a re-analysis of the deposited data

Results flagged for a closer look

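The summed peak width moved in opposite directions in the 2 pairs of treatment and control at 2 genes. At RPS27L it was 100 bp higher with doxorubicin than without treatment and fell by 460 bp with Nutlin-3 relative to DMSO (a change of -460), where 1 DMSO peak of 700 bp made up most of the DMSO width. At DDB2 it was 40 bp higher with doxorubicin than without treatment and 80 bp lower with Nutlin-3 than with DMSO (a change of -80). The untreated list had 0 bp in every window, so the first of each pair of changes could not have been negative. With 1 library per condition, neither difference was tested.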

How the results depend on the processing

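No paired analysis was possible because each group has 1 library, and for the same reason no replicate could be left out. The alternatives gave 116 values, of which 76 were within 1.5 times or within the interval and 40 moved. Leaving out the RPS27L window, chosen after seeing the data, gave lengths of 180 bp (doxorubicin), 1140 bp (Nutlin-3) and 540 bp (DMSO). Placing peaks by their midpoint and shortening or lengthening the windows by 10 kb moved no count of peaks or windows by over 1.5 times. Without peaks of 40 bp, the windows held 2 doxorubicin peaks (2 windows, 120 bp), 10 Nutlin-3 peaks (860 bp) and 5 DMSO peaks. Nutlin-3 peaks shared with DMSO were then 10.0% (against 4.82% of the list without such peaks) and the reverse 20.0%. Doxorubicin and Nutlin-3 shared 0% in both directions. Regions numbered 9 for Nutlin-3 alone, 1 for Nutlin-3 with DMSO, 1 for doxorubicin with DMSO and 0 for all 3 lists. Apart from the 4.82%, no share over the whole lists was computed after this step or after the merging below. These values therefore have no background and are not a trait of these genes. Merging peaks up to 500 bp apart gave 10 Nutlin-3 and 6 DMSO peaks, with lengths of 560 bp (doxorubicin), 5860 bp (Nutlin-3) and 2560 bp (DMSO), since gaps are then counted, and left 4 regions for Nutlin-3 alone, 1 for Nutlin-3 with DMSO, and 0 for DMSO or doxorubicin alone. Among the 496 widest peaks of each list, the windows held 0 doxorubicin peaks (0 windows, 0 bp), 0 Nutlin-3 peaks (0 windows, 0 bp) and 2 DMSO peaks (2 windows, 840 bp). The DMSO cut fell among peaks of equal width. The DMSO peak of 120 bp at DDB2, with rank 480, was tied there and left out, so the DMSO values depend on the order of ties. Within 1000 bp, Nutlin-3 peaks shared with DMSO rose to 75.0% and the reverse to 100%, against 18.9% and 88.4% of the whole lists. Doxorubicin with Nutlin-3 rose to 100% and the reverse to 66.7%, against 78.1% and 19.1% of the whole lists. Doxorubicin with DMSO rose to 100% and the reverse to 90.0%, against 49.3% and 60% of the whole lists. Reciprocal overlap and midpoint distance moved no share out of its interval. The cause was not tested beyond what each rule does by construction. Depth is unknown, so the absence of a peak from a list cannot be told apart from a lack of reads.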

Other observations

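Lengthening the windows by 10 kb at each end took in 1 further peak over all 4 lists, a DMSO peak, which left 6 doxorubicin, 0 untreated, 24 Nutlin-3 and 11 DMSO peaks. Shortening them by 10 kb at each end, to about the genes alone, kept 6 doxorubicin, 0 untreated, 21 Nutlin-3 and 10 DMSO peaks. The Nutlin-3 peak beyond the 3′ end of POLH lay 6420 bp from that DMSO peak and 39160 bp from the nearest other Nutlin-3 peak.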
